A study of Homo sapiens with 7 samples.

Results

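The formin FHOD3 and 8 other factors that build, cap or recycle actin filaments (FHOD1, DAAM1, DAAM2, LMOD2, LMOD3, TMOD1, CAP2 and CFL2) were followed in human cardiomyocytes given an antisense oligonucleotide against MYH7B RNA. The genes were taken by symbol from the deposited expression table, and all 9 had an entry among its 60234 genes. FHOD3 was picked on its large fall in this same comparison, so its values are given as a description with no test. The other 8 were taken by name, with earlier results of these data known.

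Muscle contraction depends on thin filaments of regular length, which are polymers of actin. Formins such as FHOD3 sit at the barbed ends of filaments and promote their nucleation or elongation, tropomodulins cap the pointed ends, and leiomodins let the pointed ends grow. Cofilins and cyclase-associated proteins sever filaments and return actin monomers to the pool. FHOD3 is the formin best known from the heart, where it is needed for sarcomere organisation, and variants of its gene are known in hypertrophic cardiomyopathy.

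Poly-A RNA came from WTC-11 cells, an established human induced pluripotent stem cell line, differentiated into cardiomyocytes with small molecules and kept for 35 days. The cells then received a synthetic strand of nucleic acid that pairs with RNA, an antisense oligonucleotide (ASO), at 2 uM for 96 h by passive uptake. The scrambled ASO group had 3 libraries and the MYH7B ASO group had 4, so all groups carried an ASO, and untreated cells were not analysed here. All libraries come from 1 line, and the labels do not say which came from separate differentiations or wells, so p-values measure only the spread between these libraries, which may be technical.

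Expression was given in TPM, an abundance per transcript length and relative to all transcripts of a library, which keeps no record of sequencing depth. Comparisons used the 3 scrambled ASO libraries against replicates 2, 3 and 4 of the MYH7B ASO. MYH7B ASO replicate 1 has a column that was deposited out of row register, so its values after reordering are given separately. The 6 compared libraries had 15290 to 16207 genes at 1 TPM or more and Pearson correlations with each other of 0.90 to 0.96 across tested genes. Mitochondrially encoded transcripts held 27.4% to 33.6% of their TPM, against 17.2% in replicate 1. MYH7B, the target, measured 23.0, 36.5 and 25.1 TPM with the scrambled ASO and 9.30, 5.65 and 6.31 TPM in MYH7B ASO replicates 2, 3 and 4. It fell by 1.85 on the log2(TPM + 1) scale (limma, SE 0.24, adjusted p = 0.0109). Without MYH7B ASO replicate 4 the adjusted p of MYH7B from limma was 0.0618. All 10 cardiomyocyte markers had a mean of at least 1 TPM, and their summed level was 10687 to 11807 TPM with the scrambled ASO, against 8902 to 11071 TPM in the 3 MYH7B ASO libraries.

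The sequence just upstream of the annotated start is shown for 3 members whose results contrast below: FHOD3, the member with the largest difference, DAAM1, another formin whose groups did not overlap, and LMOD2, a cardiac member whose groups overlapped. Sequences are from RefSeq on GRCh38.p14, plus strand, 5′ to 3′, and end before the first start that RefSeq or GENCODE 29 annotates. They cover chr18:36297463-36297712, chr14:59188417-59188645 and chr7:123655616-123655806. Capitals mark matches to the motifs described next.
FHOD3: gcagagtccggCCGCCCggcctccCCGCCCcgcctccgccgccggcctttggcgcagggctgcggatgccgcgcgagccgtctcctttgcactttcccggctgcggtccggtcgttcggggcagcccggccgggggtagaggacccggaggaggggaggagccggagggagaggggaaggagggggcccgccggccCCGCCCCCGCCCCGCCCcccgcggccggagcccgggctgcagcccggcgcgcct
DAAM1: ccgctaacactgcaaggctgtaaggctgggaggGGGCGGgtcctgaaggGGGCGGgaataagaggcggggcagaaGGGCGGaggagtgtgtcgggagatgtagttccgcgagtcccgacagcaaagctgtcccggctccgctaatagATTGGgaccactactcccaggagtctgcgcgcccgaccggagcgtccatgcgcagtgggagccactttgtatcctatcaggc
LMOD2: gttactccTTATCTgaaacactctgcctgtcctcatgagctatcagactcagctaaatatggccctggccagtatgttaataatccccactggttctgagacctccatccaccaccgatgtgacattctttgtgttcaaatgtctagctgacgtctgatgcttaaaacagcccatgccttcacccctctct

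These motifs were searched on both strands in RefSeq windows running from 250 bases before to 50 bases after each start. All 9 members matched, with 13 windows. The FHOD3 stretch holds 5 GC boxes (GGGCGG or its reverse complement), and the FHOD3 window had a GC content of 81.0%, against a median of 58.7% over all 35116 windows. The first DAAM1 window had a GC content of 60.7% and holds 3 GC boxes and 1 CCAAT box, here as its reverse complement. The LMOD2 window had a GC content of 51.0% and holds 1 GATA core (AGATAA), also as its reverse complement. High GC content was not particular to FHOD3: it was 35.3% and 83.3% in the TMOD1 windows and 43.3% and 79.3% in those of CFL2. It was 69.7% for FHOD1, 64.3% and 53.0% for DAAM2, 60.3% for CAP2, 43.3% for LMOD3 and 46.3% for the other DAAM1 window. GC boxes were found in 8 of the 13 member windows and in 45.0% of all windows, CCAAT in 3 of 13 and in 34.6%, GATA cores in 3 of 13 and in 10.3%, and a TATA box (TATAAA) in 1 of 13, of TMOD1, and in 11.5%. By gene, these were 6, 3, 3 and 1 of the 9 members. The muscle motifs searched were the MCAT core (CATTCC), the SRF CArG box and the MEF2 site, which 14.03%, 1.29% and 2.99% of all windows held. None of the 13 member windows had a match to these muscle motifs, which says only that the letters are not in these windows. No match overlapped a match of another motif. A match is a description of the sequence and not of binding.

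FHOD3 was the member that differed most between the groups. It lies on chromosome 18 at 36297714 to 36780055 on the plus strand (GRCh38, GENCODE 29), a span of 482 kb. FHOD3 measured 37.9, 44.1 and 36.0 TPM with the scrambled ASO and 6.84, 3.18 and 4.78 TPM in MYH7B ASO replicates 2, 3 and 4. All 3 MYH7B ASO libraries were far below all 3 scrambled ASO libraries, and the reordered replicate 1 was lower still at 2.66 TPM. The means were 39.3 ± 4.27 and 4.93 ± 1.84 TPM (SD, n = 3 each), and the second is 12.5% of the scrambled ASO mean or 7.97-fold lower. The log2(TPM + 1) difference of FHOD3 was -2.81, the seventh most negative of the 15988 genes that averaged 1 TPM or more. In the authors' deposited table, the shrunken log2 fold change of FHOD3 was -2.38. FHOD3 overlaps 2409 bases of TPGS2 on the other strand, and whether the counting used strand is not given in the sources used here. The libraries are bulk RNA, so fewer cells of a type and less RNA per cell cannot be told apart.

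**Figure D1:**
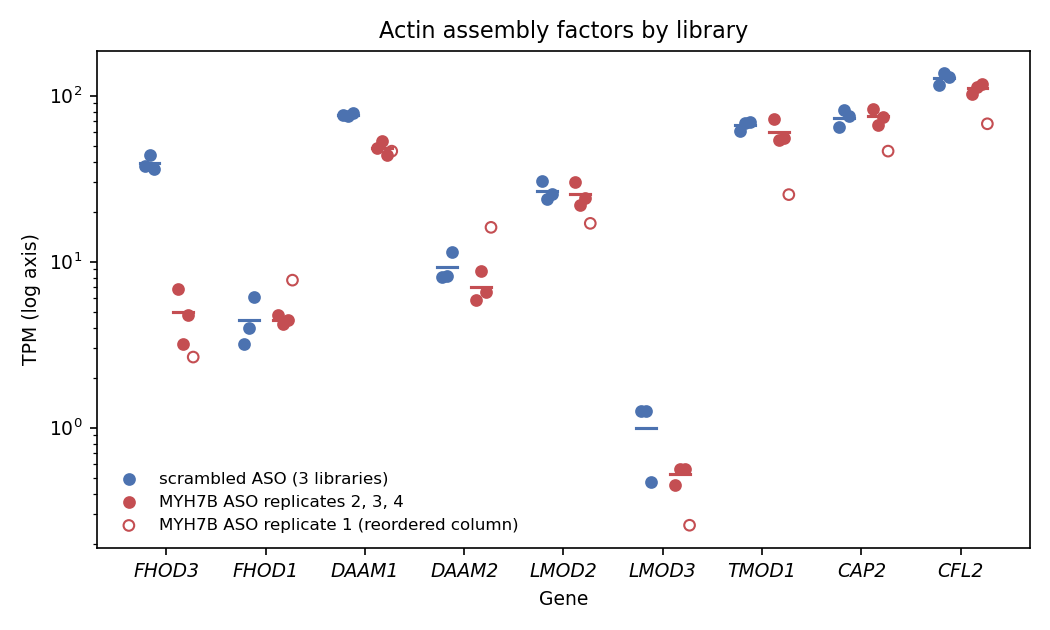
TPM of each member in each library, on a log axis, with scrambled ASO libraries, MYH7B ASO replicates 2 to 4 and the reordered MYH7B ASO replicate 1 (open points) drawn apart and bars at the means of the 3 libraries. FHOD3 is at 36.0 to 44.1 TPM with the scrambled ASO and at 3.18 to 6.84 TPM with the MYH7B ASO, while most other members overlap between the groups.

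Of the 8 members other than FHOD3, 7 had a mean of at least 1 TPM and were tested in limma with all other genes, and LMOD3 was not. None of the 7 was called at an adjusted p under 0.05, and 1, DAAM1, had an unadjusted p under 0.05. Over all tested genes limma called 265, or 1.66%, of which 236 were lower (1.48%) and 29 higher (0.181%) with the MYH7B ASO. After median-ratio rescaling of the libraries it called 213 lower and 58 higher, so the higher share was 21.4% in place of 10.9%. Before adjustment, 2435 genes had a p under 0.05. The authors' deposited table called 1 of the 8, DAAM1, at an adjusted p under 0.05, against 8.71% of the 15527 genes to which it gives one. For the other 7 the adjusted p ran from 0.418 (DAAM2) to 0.992 (LMOD2) in the authors' deposited table. The fitted difference was negative for 5 of the 7 and positive for 2, with a median of -0.13, against -0.04 over all tested genes. With 3 libraries against 3, an exact permutation test of a single gene cannot go below 0.1, and none was run.

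**Figure D2:**
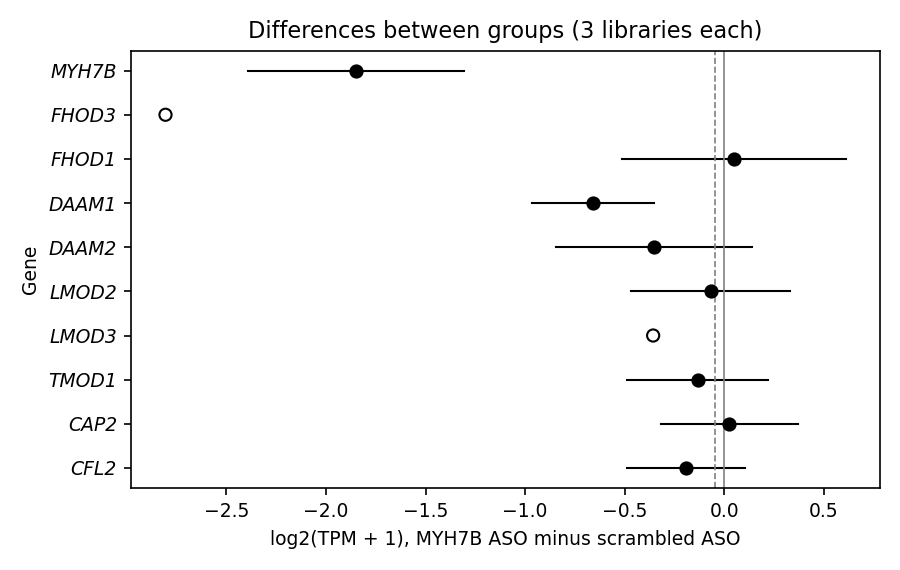
Difference in log2(TPM + 1), MYH7B ASO minus scrambled ASO, for MYH7B and the 7 tested members other than FHOD3 with 95% confidence intervals from limma, and for FHOD3 and LMOD3 as open points with no interval, with a solid line at 0 and a dashed line at the median of all tested genes. The interval of DAAM1 runs from -0.96 to -0.35, and the intervals of the other 6 tested members include 0.

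DAAM1, a formin that acts downstream of Wnt signalling through Dishevelled, was the most abundant formin with the scrambled ASO. Its gene spans 183 kb on chromosome 14, at 59188646 to 59371405 on the plus strand, and overlaps no other annotated gene. DAAM1 measured 76.1, 75.7 and 78.7 TPM with the scrambled ASO and 48.0, 53.6 and 43.7 TPM in MYH7B ASO replicates 2, 3 and 4. The groups did not overlap, which held in the lower direction for 14.1% of all tested genes, and the reordered replicate 1 lay among the other MYH7B ASO libraries at 46.2 TPM. The means were 76.8 ± 1.66 and 48.4 ± 4.96 TPM (SD, n = 3 each), so the MYH7B ASO mean was 63.0% of the other. The difference was -0.66 on the log2(TPM + 1) scale (95% confidence interval -0.96 to -0.35), and its adjusted p from limma, 0.0543, missed the threshold. It passed in 3 of 16 alternative settings, at adjusted p values from limma of 0.0386 with a minimum mean of 5 TPM, 0.0445 after median-ratio rescaling and 0.0465 without mitochondrially encoded genes. Over those 16 settings the adjusted p of DAAM1 from limma ran up to 0.722, with the replicate block by description number. Outside the replicate blocks it ran up to 0.202, without MYH7B ASO replicate 4. The authors' deposited table gives DAAM1 a shrunken log2 fold change of -0.56 and a p of 5.31e-04 after adjustment.

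DAAM2, the paralog of DAAM1, was much less abundant. Its gene spans 113 kb on chromosome 6, at 39792298 to 39904877, and overlaps 3 other annotated genes, among them MOCS1 on the other strand. DAAM2 measured 8.12, 8.20 and 11.5 TPM with the scrambled ASO and 5.85, 8.76 and 6.51 TPM in MYH7B ASO replicates 2, 3 and 4. These groups overlapped, and the reordered replicate 1 stood above every other library at 16.1 TPM. The difference of DAAM2 was -0.35 in log2(TPM + 1) (95% confidence interval -0.85 to 0.14, limma adjusted p = 0.493).

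FHOD1, the broadly expressed paralog of FHOD3, was at a low level in every library. Its gene spans 18.3 kb on chromosome 16, at 67229387 to 67247658 on the minus strand, and overlaps SLC9A5 on the plus strand. FHOD1 measured 3.17, 3.99 and 6.09 TPM with the scrambled ASO and 4.79, 4.19 and 4.42 TPM in MYH7B ASO replicates 2, 3 and 4. The MYH7B ASO values lay inside the scrambled ASO range, and the reordered replicate 1 was the highest library at 7.73 TPM. The means were 4.42 ± 1.51 and 4.47 ± 0.305 TPM (SD, n = 3 each), a difference of 0.05 in log2(TPM + 1) with a 95% confidence interval of -0.52 to 0.61 (limma adjusted p = 0.949). With the MYH7B ASO, the 3.18 to 6.84 TPM of FHOD3 enclosed the 4.19 to 4.79 TPM of FHOD1, whereas with the scrambled ASO the lowest FHOD3 library was at 36.0 TPM and the highest FHOD1 library at 6.09 TPM.

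The 14 formin genes together gave 179.9, 183 and 211 summed TPM with the scrambled ASO and 121, 130 and 105 summed TPM in MYH7B ASO replicates 2, 3 and 4. The sum was lower in each of these MYH7B ASO libraries than in any scrambled ASO library, and it was 164 in the reordered replicate 1. FHOD3 made up 21.1%, 24.1% and 17.02% of the formin TPM with the scrambled ASO and 5.64%, 2.45% and 4.55% in MYH7B ASO replicates 2, 3 and 4. The share of DAAM1 was 40.3 ± 2.65% and 40.8 ± 1.13% (SD, n = 3 each). The share of INF2, an endoplasmic reticulum-associated formin, was 16.4 ± 2.34% and 29.5 ± 1.37% (SD, n = 3 each), although its own level was 31.6 ± 7.52 and 35.1 ± 5.17 TPM (limma adjusted p = 0.748). Without FHOD3 the formin sum was 152 ± 20.1 and 114 ± 13.3 TPM (SD, n = 3 each), which again did not overlap, and 162 TPM in the reordered replicate 1, inside the scrambled ASO range. This sum still holds DAAM1, at mean levels of 76.8 and 48.4 TPM. The 10 formins outside the members summed to 51.2 to 79.0 TPM with the scrambled ASO. In MYH7B ASO replicates 2 to 4 they summed to 45.5 to 60.1 TPM, so these sums overlapped.

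**Figure D3:**
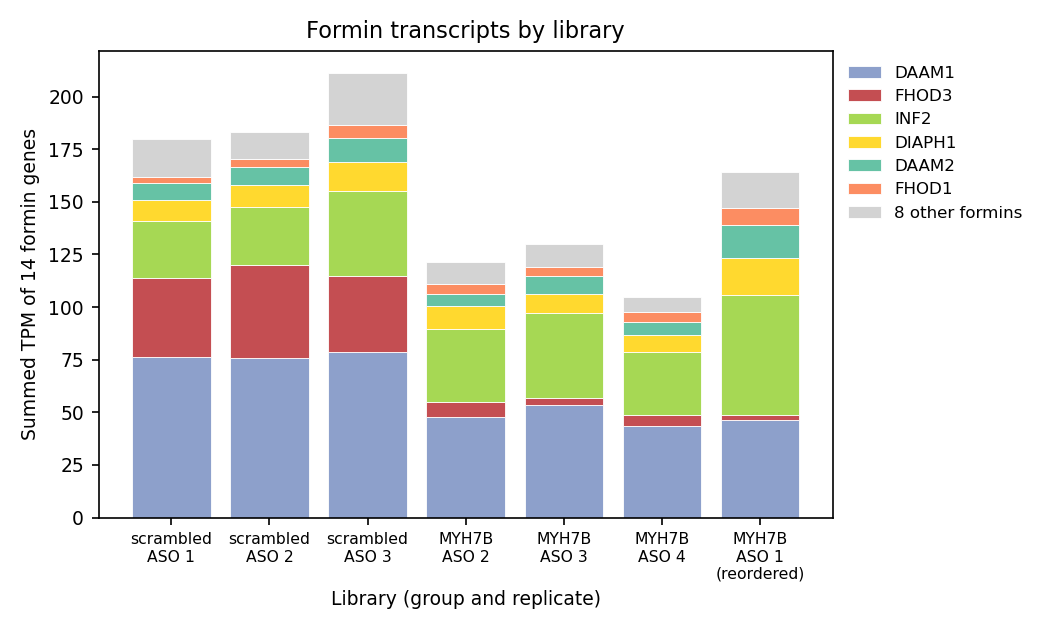
Summed TPM of 14 formin genes in each library, stacked by gene, with the reordered MYH7B ASO replicate 1 at the right. The FHOD3 segment goes from 17.02% to 24.1% of the bar with the scrambled ASO to 2.45% to 5.64% in MYH7B ASO replicates 2 to 4, and the DAAM1 segment is the largest of the bar in these 6 libraries.

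The members that act at the pointed ends of thin filaments showed no difference beyond the spread between libraries. TMOD1, the tropomodulin that caps pointed ends in the heart, measured 61.3, 68.2 and 69.1 TPM with the scrambled ASO and 72.6, 54.0 and 55.5 TPM in MYH7B ASO replicates 2, 3 and 4. These groups overlapped, with a difference of -0.13 in log2(TPM + 1) (95% confidence interval -0.49 to 0.22, limma adjusted p = 0.727), and the reordered replicate 1 was the lowest library at 25.3 TPM. TMOD1 spans 101 kb of chromosome 9, at 97501180 to 97601748 on the plus strand, and overlaps TSTD2 and an antisense transcript on the other strand.

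LMOD2, the cardiac leiomodin that lengthens thin filaments at the pointed end, measured 30.7, 23.7 and 25.5 TPM with the scrambled ASO and 30.03, 22.0 and 24.3 TPM in MYH7B ASO replicates 2, 3 and 4. The groups overlapped almost fully, and only the reordered replicate 1, at 16.98 TPM, lay below the rest. The difference was -0.07 in log2(TPM + 1), with a 95% confidence interval of -0.47 to 0.33 (limma adjusted p = 0.892). Its gene spans 8.48 kb of chromosome 7, at 123655807 to 123664290 on the plus strand. LMOD3, a leiomodin best known from skeletal muscle, where its loss causes nemaline myopathy, was near the lower limit of the table. It measured 1.25, 1.25 and 0.469 TPM with the scrambled ASO and 0.450, 0.561 and 0.564 TPM in MYH7B ASO replicates 2, 3 and 4, so the groups overlapped, and the reordered replicate 1 was lowest at 0.258 TPM. LMOD3 had a mean of 0.758 TPM, under the minimum of 1 TPM. In the fit with no filter on low values, its difference was -0.36 in log2(TPM + 1) (95% confidence interval -0.995 to 0.28, limma adjusted p = 0.697). Its gene spans 16.2 kb of chromosome 3, at 69106872 to 69123032 on the minus strand. As a share of all tropomodulin and leiomodin TPM, TMOD1 held 52.1 ± 4.18% and 53.3 ± 1.45%, and LMOD2 20.9 ± 2.43% and 22.4 ± 0.90% (SD, n = 3 each).

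The members that sever filaments and recycle monomers also overlapped between the groups. CFL2, the muscle cofilin, was the most abundant member, with 115, 136 and 130 TPM with the scrambled ASO and 102, 113 and 118 TPM in MYH7B ASO replicates 2, 3 and 4. Replicate 4 lay above the lowest scrambled ASO library, and the reordered replicate 1 lay well below all others at 67.6 TPM. The difference of CFL2 was -0.19 in log2(TPM + 1) (95% confidence interval -0.49 to 0.10, limma adjusted p = 0.539). Its gene spans 8.06 kb of chromosome 14, at 34706769 to 34714823 on the minus strand. Among cofilins and destrin, CFL2 held 16.7 ± 1.31% of the TPM with the scrambled ASO and 14.4 ± 1.45% with the MYH7B ASO (SD, n = 3 each).

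CAP2, the cyclase-associated protein of striated muscle, measured 64.3, 81.8 and 74.8 TPM with the scrambled ASO and 83.2, 66.9 and 74.7 TPM in MYH7B ASO replicates 2, 3 and 4. The groups overlapped over most of their range, with the reordered replicate 1 lowest at 46.3 TPM. The difference was 0.03 in log2(TPM + 1), with a 95% confidence interval of -0.32 to 0.37 (limma adjusted p = 0.955). Its gene spans 165 kb of chromosome 6, at 17393216 to 17557792 on the plus strand, and holds the pseudogene RPL7P26 on the other strand. The fitted signs of FHOD1, LMOD2 and CAP2 each changed in some of the alternative settings, so no direction is given for them.

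In the scrambled ASO libraries, the mean levels per length ran from CFL2 at 127 TPM through DAAM1 at 76.8, CAP2 at 73.6, TMOD1 at 66.2, FHOD3 at 39.3, LMOD2 at 26.6, DAAM2 at 9.26 and FHOD1 at 4.42 to LMOD3 at 0.990 TPM. The library values of DAAM1 overlapped those of CAP2, and those of CAP2 overlapped those of TMOD1, so these neighbours did not differ beyond their spread. All other neighbours were apart. With the MYH7B ASO (replicates 2 to 4), FHOD3 moved from between TMOD1 and LMOD2 to between DAAM2, at 7.04 ± 1.52 TPM, and FHOD1, and its values overlapped those of both. The level of FHOD3 as a ratio to that of DAAM1 was 0.51 ± 0.06 with the scrambled ASO and 0.10 ± 0.04 with the MYH7B ASO (SD, n = 3 each).

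The rest of the actin machinery was read from 9 lists with 100 symbols, of which 98 were in the table and 86 were tested. In these lists limma called 5 genes lower and 0 higher, 5.81% of those tested, against 1.66% of all genes, and the median difference was -0.04 in both the lists and all genes. Called genes came from 3 lists: the actins (3 of 6), the Arp2/3 complex and its activators (1 of 18), and the cappers, severing proteins and elongators (1 of 11). By limma, no gene was called among the 7 other formins tested (median -0.28), the 3 other tropomodulins and leiomodins (-0.25), the 14 other depolymerising and monomer-binding factors (0.06), the 8 thin filament partners (-0.07) or SRF and its 3 coactivators (-0.06). At an unadjusted p under 0.05 in limma, these 5 lists held 3 lower and 2 higher genes. The authors' deposited table called 4 genes of these 5 lists, and 8.71% of all genes to which it gives an adjusted p. By list, it called 2 of 8 formins and 2 of 10 thin filament partners with an adjusted p. It called 0 of 3 tropomodulins and leiomodins, 0 of 14 depolymerising and monomer-binding factors and 0 of 4 SRF genes. The called genes were the formins DIAPH2 and DIAPH3, at -0.90 and -0.94 in shrunken log2 fold change, and the thin filament partners TPM2 at -0.45 and KLHL41 at 0.59, all in the authors' deposited table.

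Among the actins, the substrate of the members, ACTC1, ACTA1 and ACTG2 fell. ACTC1, the cardiac actin, measured 3583, 3629 and 3730 TPM with the scrambled ASO and 2185, 2335 and 2403 TPM in MYH7B ASO replicates 2, 3 and 4, with no overlap. It fell by 0.66 on the log2(TPM + 1) scale (SE 0.10, limma adjusted p = 0.0209), and leaving out any 1 of the 6 libraries ended the call at adjusted p values of 0.0547 to 0.103. ACTA1, the skeletal muscle actin, went from 28.3 ± 6.48 to 10.3 ± 0.405 TPM (SD, n = 3 each) and fell by 1.35 on that scale (limma adjusted p = 0.0156). ACTG2, the enteric smooth muscle actin, went from 22.2 ± 9.01 to 4.56 ± 1.45 TPM (SD, n = 3 each) and fell by 2.02 on that scale (limma adjusted p = 0.0173). The call of ACTA1 was lost without scrambled ASO replicate 3 or without MYH7B ASO replicate 2, 3 or 4 (adjusted p 0.0558 to 0.0833 in limma), and that of ACTG2 without scrambled ASO replicate 2 or MYH7B ASO replicate 2, 3 or 4 (0.0514 to 0.0757). With the reordered replicate 1 added, only ACTG2 of these 3 was called (limma adjusted p = 0.0349), and ACTC1 had an adjusted p of 0.261. Actin genes have nearly identical coding sequences, so how reads were divided between them is uncertain. The authors' deposited table gives shrunken log2 fold changes of -0.55 for ACTC1, -1.16 for ACTA1 and -1.42 for ACTG2, with adjusted p values of 6.63e-04, 8.17e-08 and 3.06e-07. It also called ACTA2 lower, at -0.67 with an adjusted p of 0.00463, which limma did not call.

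Outside the actins, SPIRE1, an actin nucleator that works with formins, went from 13.9 ± 3.77 to 5.36 ± 0.817 TPM (SD, n = 3 each) and fell by 1.20 on the log2(TPM + 1) scale (limma adjusted p = 0.0449). Its call was lost with any 1 library left out except scrambled ASO replicate 2, at adjusted p values from 0.108 to 0.168. ARPC1A, a subunit of the branching Arp2/3 complex, went from 79.8 ± 8.29 to 46.8 ± 5.29 TPM (SD, n = 3 each) and fell by 0.76 on that scale (limma adjusted p = 0.0469). Leaving out any 1 library ended the call of ARPC1A, at 0.0847 to 0.177. The most abundant genes of the remaining lists were not called: TMSB10, which binds actin monomers, was at 1095 ± 312 and 1220 ± 152 TPM, ARPC2 at 312 ± 28.5 and 272 ± 19.7 TPM, and the severing protein GSN at 153 ± 15.6 and 185 ± 26.1 TPM (SD, n = 3 each). The tropomyosin TPM1 was at 2521 ± 219 and 2430 ± 178 TPM, LMOD1 at 20.9 ± 0.484 and 17.5 ± 2.50 TPM, and the SRF coactivator MYOCD at 31.5 ± 6.68 and 23.7 ± 3.37 TPM (SD, n = 3 each).

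**Figure D4:**
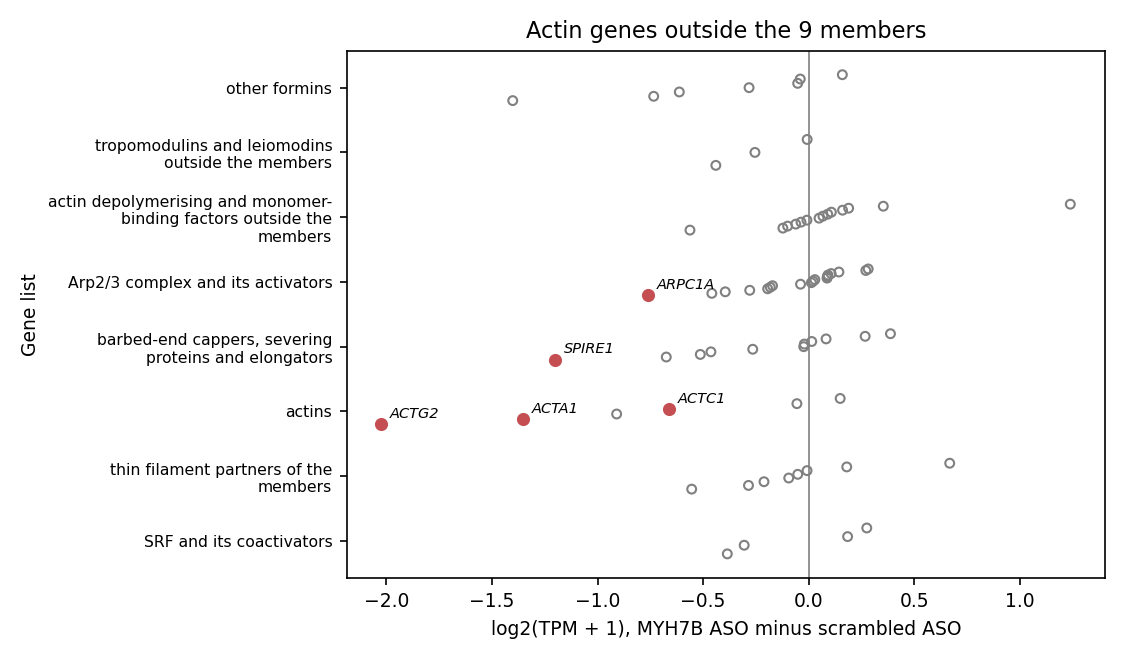
Difference in log2(TPM + 1), MYH7B ASO minus scrambled ASO, for each tested gene of 8 actin lists, with called genes filled and named and a line at 0. The 5 called genes are ACTC1, ACTA1, ACTG2, SPIRE1 and ARPC1A, all of them negative.

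Among markers outside the cardiomyocyte list, limma called some of fibroblasts and smooth muscle. It called 0 of the skeletal muscle, endothelial, pluripotent and cycling markers. The summed level of 9 fibroblast markers was 2908 to 5255 TPM with the scrambled ASO and 1366 to 2103 TPM in MYH7B ASO replicates 2 to 4, and limma called 2 of the 9 lower, COL1A2 and LUM, and 0 higher. At an unadjusted p under 0.05 in limma, 5 of the 9 were lower and 2 higher. The 2 were PDGFRA, at 23.7 and 36.3 mean TPM, and TCF21, at 8.40 and 14.4 mean TPM, with the scrambled and the MYH7B ASO. The authors' deposited table called both of these higher and 4 of the 9 lower. The summed level is mostly that of collagen genes. It was 4159 TPM in the reordered replicate 1, inside the scrambled ASO range. The sum of 6 smooth muscle markers, which include ACTA2 and LMOD1 of the actin lists, was 962 to 1361 and 576 to 752 TPM, with 1 of the 6, MYH11, called lower, and 1110 TPM in the reordered replicate 1. The cardiomyocyte sum of replicate 1 was 8019 TPM, below the other 6 libraries. Of 10 cardiomyocyte markers limma called 0, with 6 at an unadjusted p under 0.05, all lower. The authors' deposited table called 1 of these 10 lower, 3 of the 6 smooth muscle markers lower and 0 of either higher. Of the 3 endothelial markers with an adjusted p, it called 1 lower and 0 higher. It called 0 skeletal muscle, pluripotent or cycling markers, and 8.71% of all genes to which it gives an adjusted p. Skeletal muscle markers summed to 342 to 473 and 243 to 415 TPM with MYH8 at 0 in all 6 libraries, and to 73.2 TPM in the reordered replicate 1. This sum is mostly that of CKM, and only 2 of the 6 genes averaged 1 TPM or more. In the authors' deposited table the mean normalized signal was 16478 for CKM and 44.5 for MYH3. Endothelial markers summed to 17.5 to 21.8 and 11.5 to 17.2 TPM with VWF, CDH5 and PECAM1 under 1 TPM. Pluripotent markers summed to 3.23 to 3.79 and 2.69 to 3.49 TPM, and cycling markers to 90.4 to 101 and 67.1 to 91.8 TPM. The part of cell makeup in the values of the members was not tested.

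The genes whose profile over the 6 libraries was most like that of FHOD3, by Euclidean distance of centred log2(TPM + 1) values, were SLCO3A1 (0.662), GPC6 (0.752), KCNIP4 (0.863), TRAPPC9 (0.886) and DDAH1 (0.936). This is a description, since the profiles include the group difference on which FHOD3 was picked. SLCO3A1 had means of 20.1 and 2.995 TPM, GPC6 12.3 and 0.951, KCNIP4 13.8 and 0.996, TRAPPC9 16.7 and 2.15, and DDAH1 16.1 and 2.33 TPM with the scrambled and the MYH7B ASO. Their annotated spans were 319, 1181, 1220, 731 and 260 kb. The nearest other member, DAAM1, came at rank 1076 with a distance of 2.75.

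Span differed widely among the members, with 5 of at least 100 kb (FHOD3, DAAM1, CAP2, DAAM2 and TMOD1) and 4 under 20 kb. Of 12952 protein-coding genes tested in limma, 2634 spanned at least 100 kb, of which 143 (5.43%) were called lower and 1 higher, with a median difference of -0.31. Of the 10318 with a shorter span, 71 (0.688%) were called lower and 20 higher, with a median of 0.01. At 200 kb or more, 105 of 1048 genes were called lower and 0 higher, with a median of -0.43. Of the other 3 members in the longer class, CAP2, at 165 kb, had a difference of 0.03, DAAM2, at 113 kb, -0.35, and TMOD1, at 101 kb, -0.13. The part of span in the values of FHOD3 and DAAM1 was not tested.

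**Figure D5:**
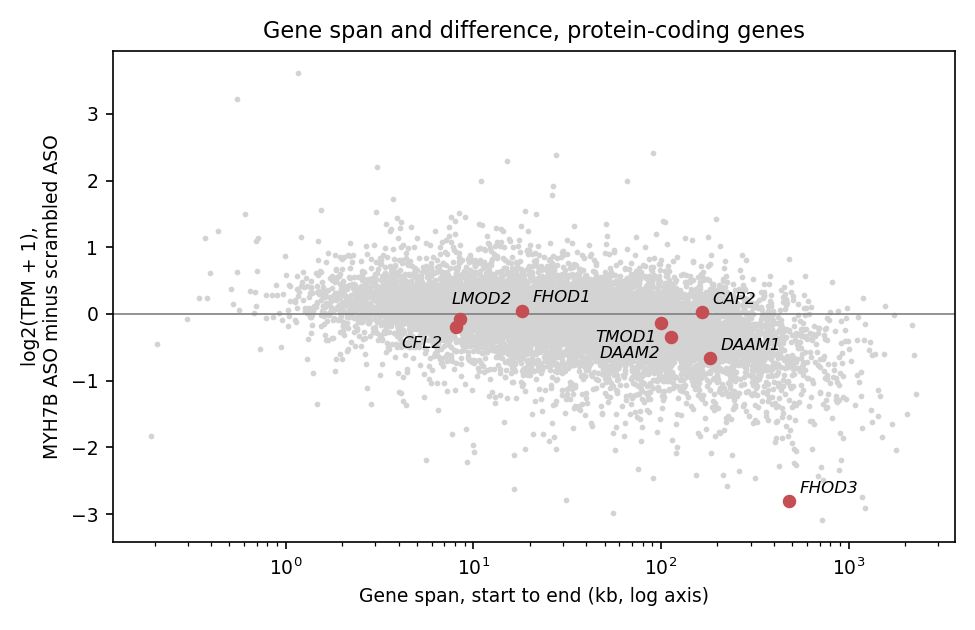
Difference in log2(TPM + 1), MYH7B ASO minus scrambled ASO, against annotated span in kb on a log axis for 12952 protein-coding genes, with the tested members named and a line at 0. FHOD3, at 482 kb and -2.81, lies far below the other members, and DAAM1 is at 183 kb and -0.66.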

How the data were processed

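Poly-A RNA of 7 libraries was measured, and depth per library is unknown because each complete deposited column sums to 1000000 TPM. Per the file headers, the authors deposited TPM per gene and a comparison table with a mean normalized signal over libraries, shrunken log2 fold changes, their standard error and a test score, p-values and adjusted p-values. The submitters' processing notes name DESeq2 and GRCh38.p13. The aligner, quantifier, annotation release and use of strand are not given in the sources used here. No per-sample column was left unused.

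The column of MYH7B ASO replicate 1 has 58721 filled positions of 60234. In deposited order its median correlation with the other libraries across genes was 0.41, and after assignment to sorted GENCODE 29 gene identifiers 0.96. This order was chosen after the data had been seen, so that library stayed out of the comparison and served as an alternative.

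log2(TPM + 1) values of the 15988 genes that averaged 1 TPM or more over the 6 libraries were fitted with limma 3.58.1 in R 4.3.3 (lmFit, eBayes with an intensity trend, no covariate), with Benjamini-Hochberg adjustment over all genes. Called means an adjusted p under 0.05. Differences on this scale understate changes of low genes. The script was tested on simulated data. Tables and figures used matplotlib 3.10.9, numpy 2.4.6 and pandas 2.3.3 under Python 3.11.15. Gene positions are from GENCODE 29 (GRCh38).

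The members and gene lists were chosen with earlier results of these data known. Genes named are the 9 members, MYH7B, up to 4 called genes and the most abundant gene of each actin list, and the 5 genes most like FHOD3. COL1A2, LUM, MYH11, PDGFRA, TCF21, CKM, MYH3, ACTA2, DIAPH2, DIAPH3, TPM2 and KLHL41 were named after their values were seen. The values of 1 of the 9 actin lists are not reported here. Alternatives were pseudocounts of 0.1 and 5, a minimum of 5 TPM and no filter, median-ratio rescaling, removal of mitochondrially encoded genes, 7 libraries, a replicate block, no intensity trend and leaving out each library.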

Additional observations from a re-analysis of the deposited data

Results flagged for a closer look

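FHOD1 was at 7.73 TPM in MYH7B ASO replicate 1, far from the 4.19 to 4.79 TPM of the other 3 MYH7B ASO libraries and above every scrambled ASO library. Such a gap arises by chance in about 1 in 20 groups, and 10 genes were examined. DAAM2 was at 16.1 TPM in the same library, above every scrambled ASO library, where the highest was 11.5 TPM. This library is outside the 6 that were compared, and its values rest on the reordering of its column.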

How the results depend on the processing

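The comparison called 265 genes, 0 members and 5 genes of the actin lists. The count of genes was 40 with no filter on low values, 170 with 7 libraries, 150 with no intensity trend, and 53 to 149 with 1 library left out, the lowest without MYH7B ASO replicate 4. The cause of these differences was not tested. The count of members was 1 with a minimum mean of 5 TPM, 1 after median-ratio rescaling and 1 without mitochondrially encoded genes, DAAM1 each time, and 0 with any 1 library left out. The count of actin list genes was 3 with a pseudocount of 5, 0 with no filter, 3 after median-ratio rescaling, 3 without mitochondrially encoded genes, 1 with 7 libraries, 1 with no intensity trend and 0 to 2 with 1 library left out. Whether replicate numbers pair the samples cannot be settled from 2 pairs per numbering. Deviations of same-numbered libraries had a mean correlation of 0.09 by title number and -0.06 by description number. The same-title pairs, at 0.08 and 0.11, were the highest of the pairs between groups, and the others ran from -0.07 to 0.04. With the replicate block by title or by description number, limma called 0 genes (1718 and 1096 at an unadjusted p under 0.05), 0 members and 0 list genes. Only 2 numbers are shared between the groups, so the block leaves almost nothing to estimate the spread from. Calls were hardly possible in that setting, and no conclusion is drawn from their absence. The difference of FHOD3 ran from -3.05 to -2.17 over the 16 alternatives. They reuse the libraries on which FHOD3 was picked, so its negative sign was fixed in advance. The difference of DAAM1 ran from -0.73 to -0.59. MYH7B was called in 11 of 16, and its adjusted p was 0.0779 with no filter, 0.0525 with 7 libraries, 0.331 and 0.720 with the blocks and 0.0618 without MYH7B ASO replicate 4. FHOD1 kept its sign in 12 of 15, LMOD2 in 13 of 16 and CAP2 in 11 of 16, and DAAM2, TMOD1 and CFL2 in all 16. Depth is unknown, so counting error, which matters most for LMOD3, could not be given.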

Other observations

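In MYH7B ASO replicate 1, which entered no comparison, several genes of the actin machinery lay outside the range of the other libraries or of their own group. ACTC1 was at 734 TPM and ACTA1 at 3.50 TPM, both below all 6 other libraries, while ACTG2, at 8.16 TPM, was above the other 3 MYH7B ASO libraries and below the scrambled ASO libraries. CFL2 held 9.27% of the cofilin and destrin TPM there and CAP2 42.4% of the TPM of CAP1 and CAP2, each below its share in the other 6 libraries. INF2 held 34.6% and DAAM1 28.1% of the formin TPM in that library.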
